A study of Mus musculus with 8 samples.

Results

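The genes described here encode the factors that start and extend protein synthesis on the cytosolic ribosome, measured as mRNA in TCMK-1, a line of transformed tubule epithelium from mouse kidney. They were taken by symbol, as every row of the deposited table named Eif1 to Eif6 or Eef1 or Eef2. The eIF2 kinases (Eif2ak), the eIF2B exchange factor (Eif2b) and Eif2s1, the alpha subunit of eIF2, were set aside. Classes follow the symbols, so Eif4a3 and Eif5a, described below with other roles, were counted with the initiation factors. This gave 55 of 21879 genes, of which 53 passed the expression filter: 30 initiation factors outside eIF3, 14 eIF3 rows and 9 elongation factors or their enzymes. The other two were Eef1a2, the elongation factor 1A form of muscle and neurons, and Eif4e1b, an oocyte cap-binding protein, each with at most 1 count in any library.

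All cells were given 20 µM of cisplatin, a DNA-crosslinking platinum compound toxic to the renal tubule. Of the 8 poly(A)-selected libraries, 4 came from cells with a control shRNA (genotype smgGDS control) and 4 from cells with an shRNA against smgGDS (genotype smgGDS shRNA). smgGDS, the product of Rap1gds1, promotes nucleotide exchange on several small GTPases. No library without cisplatin was analysed here, so the comparison is that of the knockdown within treated cells. Whether libraries of a group are separate cultures or clones is not stated in the labels, so each group may be 1 clone, and p-values here rest on a spread that may be purely technical.

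Total expected counts were 11560977 to 16059158 per control library and 12746051 to 14280962 per knockdown library. Rap1gds1 lay at 15.5 to 17 CPM (counts scaled to library size with TMM factors) in controls and 2.36 to 2.80 CPM in the knockdown, which matched the labels of all 8 libraries. On the first principal component, which carried 29.2% of the variance, knockdown replicate 4 stood apart at 20.9, with the other knockdown libraries between 8.86 and 9.58. Of 9 kidney epithelial markers 6 passed the filter, led by Aqp1. Cdh1, Cdh16, Pax2 and the proximal tubule genes Slc34a1 and Slc5a2 stayed at or below 13 counts in any library, as did the leukocyte marker Ptprc and the endothelial markers Pecam1 and Cdh5. The proximal tubule genes Lrp2 and Cubn passed the filter, each with at most 24 counts in any library. In bulk RNA, fewer cells of a type and less RNA per cell cannot be told apart. The summed FPKM (the authors' length-scaled values) of the epithelial list was 69.3 to 75.9 in controls and 57.9 to 61.2 in the knockdown. Aqp1 alone accounted for 54.5 to 60.7 and 43.9 to 46.6 FPKM of it, and the other 8 markers summed to overlapping ranges, 14.1 to 16.1 and 12.4 to 15.9 FPKM. The sum of 3 fibroblast and pericyte markers was 50.4 to 53.7 and 56.9 to 64.8. Col1a1 alone accounted for 46.4 to 49.4 and 51.5 to 58.8 FPKM of that sum. The low Pdgfrb and Dcn were also called as rises. The part of these shifts in the results below was not tested.

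Translation begins when eIF2 with GTP brings the initiator tRNA to the small ribosomal subunit, held ready by eIF1, eIF1A, eIF5 and the large eIF3 scaffold. The eIF4F complex (the cap-binding eIF4E, the scaffold eIF4G and the helicase eIF4A) recruits the mRNA, and eIF5B joins the large subunit. eEF1A then delivers each aminoacyl-tRNA, the eEF1B complex recharges eEF1A with GTP, and eEF2 moves the ribosome along. Many of these mRNAs are known for their own control by mTOR signalling, and phosphorylation of eIF2 by PERK, the kinase named in the study's title, lowers initiation.

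Of the 53 tested factors, 12 rose in the knockdown and 0 fell, by edgeR's quasi-likelihood test with Benjamini-Hochberg adjustment over all 11576 tested genes and a threshold of 0.05. DESeq2 and voom also called 0 falls, and by edgeR 1 factor with a negative estimate, Eif2d, had an unadjusted p under 0.05. Those that rose were 6 initiation factors outside eIF3 (Eif4g2, Eif1, Eif4g3, Eif4h, Eif4a2 and Eif5), 4 eIF3 genes (Eif3h, Eif3e, Eif3j2 and Eif3m) and 2 elongation factors (Eef1b2 and Eef1a1). Calls covered 22.6% of the factors, all of them rises, where 20.2% of all tested genes were called, 11.1% upward and 9.15% downward. These factors are abundant, and among the 1979 tested genes with a mean of at least 100 CPM (a level chosen after seeing the data) 28.3% rose and 10.3% fell. Of the 35 factors at that level 11 rose, or 31.4%, so the members' share lay near that of abundant genes in general.

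The changes were small. Among the 12 that rose the median log2 fold change, knockdown minus control throughout, was 0.15, against a median absolute change of 0.24 over all called genes. The largest was 0.38. All 4 knockdown libraries lay above all 4 controls for each of the 12. Knockdown libraries lay wholly above controls for 16 of the 53 factors and for 11.5% of all tested genes. That share was not computed for abundant genes alone, so the comparison does not allow for the level of the factors. Knockdown replicate 4 was the highest library for 8 of the 12. Without it 12 factors rose, 11 of them the same, with Eif3m lost and Eif1a gained.

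The number of rises was the same with some scalings and lower with others. With upper-quartile factors and with DESeq2 size factors 12 factors rose and 0 fell, the same 12 genes. TMM factors were 1.01 to 1.03 in controls and 0.974 to 0.987 in the knockdown, which alone moves every log2 fold change upward by 0.06. With library totals in place of TMM, 7 factors rose and 4 fell (Eif2d, Eif2s2, Eif4a3 and Eif4b), and on the authors' FPKM, where the test also changed (limma on log2 values), 6 rose and 3 fell (Eif2d, Eif4a3 and Eif4ebp2). Under these, the all-gene median moved from 0.00 to -0.06 and -0.05. A set of 6 factors, Eif4g2, Eif1, Eif4g3, Eif3h, Eif3e and Eef1b2, kept their call in every alternative in which they were tested. All 12 kept a positive estimate in each alternative that tested them, which was 20 for 9 of them and 19 for Eif1, Eif4a2 and Eif3j2, left out of the fit to whole counts.

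**Figure D1:**
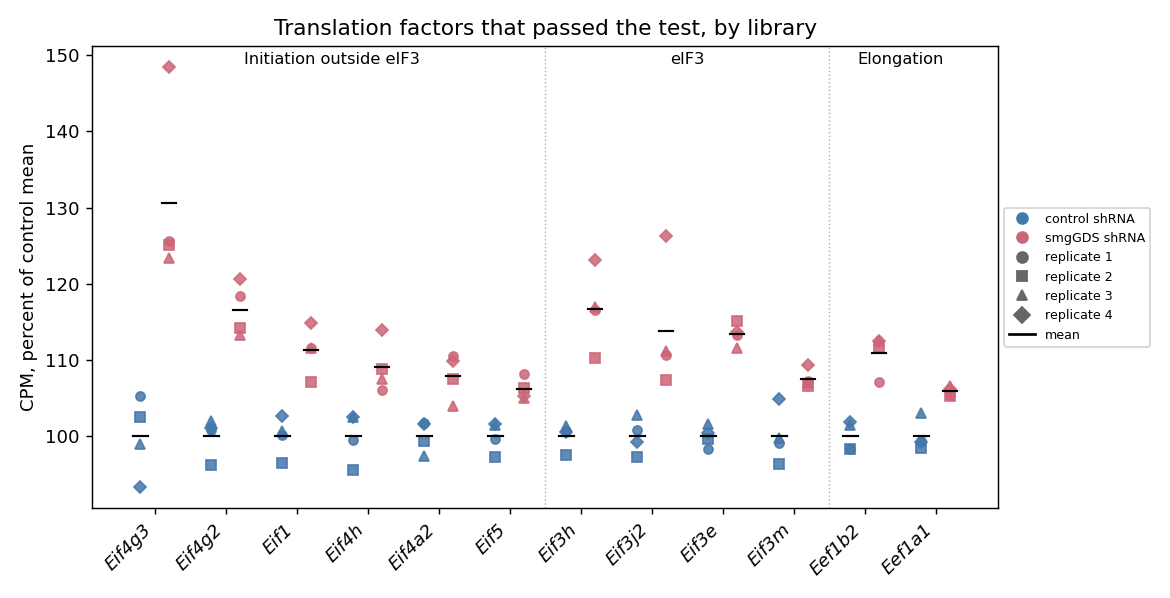
TMM-scaled CPM of the 12 translation factors that passed the test, as percent of each gene's control mean, for 4 control (blue) and 4 knockdown (red) libraries. Marker shapes give the replicate number and black bars the group means. All knockdown points lie above all control points of the same gene, and knockdown replicate 4 is the highest for 8 genes, Eif4g3 most clearly. Eef1a1, Eif3m, Eif4a2, Eif4h and Eif5 were not called with library-total scaling.

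Promoter sequence was matched for 40 of the 53 tested factors, 8 of them among the 12 that rose (RefSeq, build GRCm38.p6, the first start listed per gene). The 100 bases ending just before the start listed in the promoter table are shown for 6 of these 8, since genes of all 3 classes rose. For Eif4g3 the start used lies 1676 bases inside the whole gene interval of the annotation, and for the other 5 it is that interval's outer end. Capitals mark fixed words searched on both strands: the GC box GGGCGG, the CCAAT box CCAAT, an ETS site CCGGAAG, the E-box CACGTG, a CRE core word TGACG and the C/EBP-ATF response element TGATGNAAN, any of which may overlap another.
Eif1, chr11:100319849-100319948, plus strand: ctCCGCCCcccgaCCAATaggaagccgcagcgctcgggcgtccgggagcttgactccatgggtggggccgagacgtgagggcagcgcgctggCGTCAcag
Eif4g3, chr4:137993355-137993454, plus strand: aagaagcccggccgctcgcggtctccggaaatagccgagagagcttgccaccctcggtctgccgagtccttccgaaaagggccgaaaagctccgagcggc
Eif4h, chr5:134639410-134639509, minus strand: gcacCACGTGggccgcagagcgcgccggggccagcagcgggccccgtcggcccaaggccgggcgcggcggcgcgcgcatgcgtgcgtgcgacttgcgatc
Eif3m, chr2:105017028-105017127, minus strand: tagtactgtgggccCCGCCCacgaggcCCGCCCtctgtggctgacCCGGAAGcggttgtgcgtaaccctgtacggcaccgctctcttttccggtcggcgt
Eef1b2, chr1:63176731-63176830, plus strand: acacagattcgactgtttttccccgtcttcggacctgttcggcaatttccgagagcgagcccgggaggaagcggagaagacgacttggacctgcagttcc
Eef1a1, chr9:78481725-78481824, minus strand: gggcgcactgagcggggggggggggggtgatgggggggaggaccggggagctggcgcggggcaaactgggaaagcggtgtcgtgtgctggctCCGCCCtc
The 6 stretches differ from each other in these words. Eif1 carries a GC box, a CCAAT box and a CRE core word, Eif3m a pair of GC boxes with an ETS site, Eif4h an E-box and Eef1a1 a GC box. Eif4g3 and Eef1b2 hold none of the words in their whole 250 bases upstream. Over 250 bases, the GC box was present in 72.5% of the matched factors and 32.9% of the 27025 genes in the promoter table, which also lists noncoding genes. It was found in 6 of the 8 that rose and 23 of the 32 that were not called. The CRE core word was present in 42.5% of factors and 17.9% of all genes, in 2 of the 8 and 15 of the 32. The ETS site stood in 25.0% of factors (7.05% of all genes) and the E-box in 22.5% (6.05%), each in 1 of the 8 and in 9 and 8 of the 32. The CCAAT box was present in 20.0% of factors against 34.5% of all genes. The C/EBP-ATF element was found upstream of 1 factor, which was not called, and in 3.51% of all genes. These shares were not computed for the tested genes alone, so the comparisons with all genes do not allow for expression. A match is a string of letters and not a measured binding site.

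Among the 11 tested cap-binding and scanning factors 4 rose, beside 11.1% of all tested genes and 28.3% of those at 100 CPM or more, and a pair of them belonged to the eIF4G scaffold family. Eif4g2 (ncbi_13690, chromosome 7, 111067985 to 111083030) encodes DAP5, which resembles the middle and end of eIF4G and lacks the part that binds eIF4E. It had 1719, 1641, 1740 and 1723 CPM in control replicates 1 to 4 and 2019, 1948, 1931 and 2057 CPM in knockdown replicates 1 to 4. The lowest knockdown library was thus above the highest control. The log2 fold change was 0.22 (SE 0.027, edgeR adjusted p = 4.28e-08), or 117% of control (95% interval 112% to 121%), the smallest p among the 53 factors. Without knockdown replicate 4 and in every other alternative the estimate stayed between 0.15 and 0.24.

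Eif4g3 (ncbi_230861, chromosome 4, 137991779 to 138207086), encoding the scaffold eIF4GII, had the largest rise and a low level. Controls held 20.6, 20.0, 19.3 and 18.2 CPM (334, 332, 277 and 213 counts), and knockdown libraries 24.5, 24.4, 24.1 and 29 CPM (344, 311, 301 and 363 counts). Knockdown replicate 4 exceeded the other three, which were close together and all above the controls. The log2 fold change was 0.38 (SE 0.080, edgeR adjusted p = 0.000408), or 130% of control (95% interval 116% to 146%). Eif4g1, the main eIF4G, was at 734 ± 16.4 and 744 ± 15.6 CPM (SD, n = 4) with a log2 fold change of 0.02 (95% interval -0.04 to 0.07).

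Compared per length, Eif4g2 was the most abundant of the family, with 225 ± 3.90 FPKM in controls and 252 ± 6.66 in the knockdown (SD, n = 4). Eif4g1 was at 138 ± 4.26 and 135 ± 3.69 FPKM, and Eif4g3 at 3.38 ± 0.119 and 4.35 ± 0.259 FPKM. The share of Eif4g2 in the summed FPKM of the 3 genes was 61.9%, 59.9%, 61.8% and 62.3% in control replicates 1 to 4. It was 64.7%, 63.4%, 64.4% and 65.5% in knockdown replicates 1 to 4. Eif4g1 took 36.8% to 39.2% of the family in controls and 33.3% to 35.5% in the knockdown, again without overlap. Eif4g3 was a minor part in every library, at 0.892% to 0.957% and 1.06% to 1.19%. These shares compare genes within a library, so they do not depend on the library scaling.

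**Figure D2:**
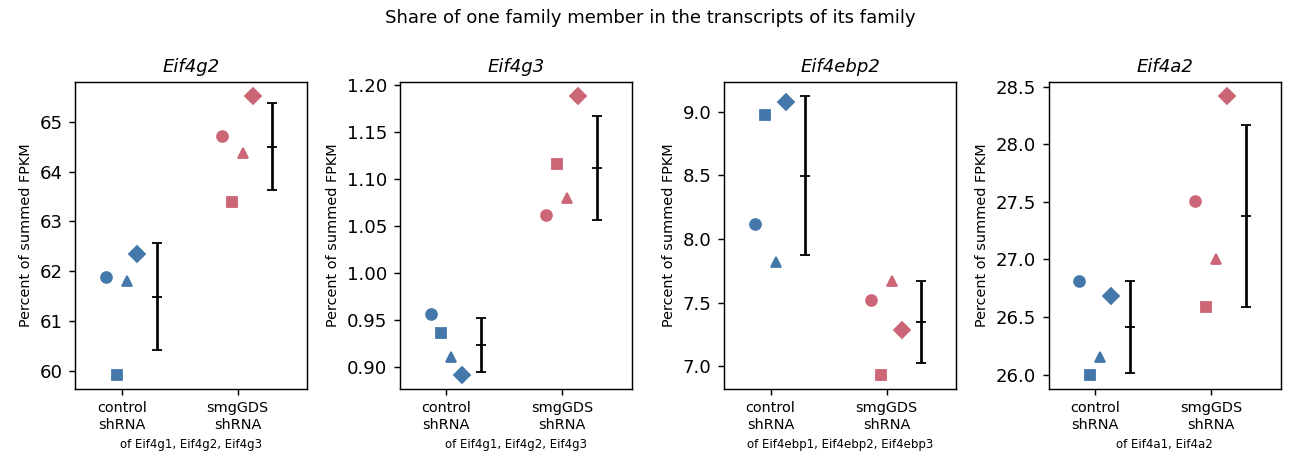
Share of 1 family member in the summed FPKM of its family (named under each panel), in percent, per library, with mean ± SD at the right of each group (n = 4). Eif4g2 and Eif4g3 shares are higher and the Eif4ebp2 share is lower in all 4 knockdown libraries than in any control, while the Eif4a2 shares overlap. The vertical axes do not start at 0.

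The helicase and its partners moved less. Eif4a2, the less abundant of the paired eIF4A helicase genes, went from 500 ± 10.3 to 540 ± 14.8 CPM (SD, n = 4, log2 change 0.11 ± 0.029 SE, edgeR adjusted p = 0.00458). Its control libraries spanned 487 to 509 CPM and its knockdown libraries 520 to 553. Eif4a1, with 693 ± 13.4 FPKM in controls against 249 ± 6.19 for Eif4a2, had a log2 fold change of 0.05 (95% interval -0.004 to 0.10). The Eif4a2 share of both was 26.0% to 26.8% in controls and 26.6% to 28.4% in the knockdown, so the shares overlapped. Eif4h, an activator of eIF4A, rose from 431 ± 14.3 to 471 ± 14.8 CPM (SD, n = 4, log2 change 0.13 ± 0.031 SE, edgeR adjusted p = 0.00224). Neither Eif4a2 nor Eif4h passed with library-total scaling, where the adjusted p was 0.159 and 0.0727, or on FPKM.

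Eif4b, the other activator of eIF4A, had a log2 fold change of -0.02 (95% interval -0.08 to 0.03). Eif4a3, a helicase of the exon junction complex that acts outside initiation, was at 363 ± 11.4 and 351 ± 16.8 CPM (SD, n = 4, edgeR adjusted p = 0.294). The cap-binding gene Eif4e was at 118 ± 2.69 and 124 ± 2.49 CPM (SD, n = 4, log2 change 0.07, edgeR adjusted p = 0.189). Its relative Eif4e2, which represses or replaces eIF4E on some mRNAs, had a log2 fold change of -0.01 (95% interval -0.11 to 0.08). Eif4e3 was near the limit of the assay at 2.37 and 2.4 CPM, and its interval of -0.43 to 0.49 leaves changes of this family's size undetectable.

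Of the 4 genes that restrain or carry eIF4E, 0 passed the test by edgeR, DESeq2 or voom, and 0 had an unadjusted p under 0.05. Eif4ebp1, encoding the mTOR-controlled inhibitor 4E-BP1, was at 83.6 ± 5.81 CPM in control and 86.6 ± 4.76 CPM in knockdown libraries (SD, n = 4, log2 change 0.05, edgeR adjusted p = 0.535). Eif4ebp2 was at 34.1 ± 0.562 and 31.7 ± 0.582 CPM (SD, n = 4), with groups that did not overlap but an edgeR adjusted p of 0.274. Its share of the 3 inhibitor transcripts in FPKM was 7.82% to 9.08% in controls and 6.93% to 7.67% in the knockdown. Eif4ebp1 made up the bulk, 88.9% to 90.6% and 90.2% to 91.7%. Eif4enif1, which carries eIF4E into the nucleus and to P-bodies, had a log2 fold change of 0.02 (95% interval -0.10 to 0.15).

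Among the 6 genes grouped here under start codon selection, Eif1ad by its symbol only, 2 rose, Eif1 and Eif5, beside the same shares of 11.1% and 28.3%. Eif1 (ncbi_20918, chromosome 11, 100319949 to 100322099) encodes the small protein that keeps the scanning ribosome from stopping at wrong codons. It had 1131, 1090, 1138 and 1159 CPM in control replicates 1 to 4 and 1261, 1210, 1260 and 1298 CPM in knockdown replicates 1 to 4. Every knockdown library was above every control (log2 change 0.15 ± 0.027 SE, edgeR adjusted p = 4.26e-05, or 111% of control). Counts of Eif1 were not whole in any library, so some reads were shared with other genes and its value is less certain. Its relative Eif1b was at 20.0 ± 2.38 and 19.7 ± 2.79 CPM (SD, n = 4) and supplied 1.80% to 2.68% of the summed FPKM of both genes.

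Eif5, the protein that triggers GTP hydrolysis by eIF2 at the start codon, went from 750 ± 15.3 to 796 ± 10.4 CPM (SD, n = 4, log2 change 0.09 ± 0.027 SE, edgeR adjusted p = 0.0182). Leaving out control replicate 1, control replicate 2 or knockdown replicate 1 ended this call (adjusted p 0.0555, 0.0739 and 0.0674). It was also lost with library-total scaling, on FPKM and after the length and GC correction. Eif1a and Eif1ax, which encode eIF1A, had log2 fold changes of 0.09 (edgeR adjusted p = 0.1) and 0.02 (edgeR adjusted p = 0.805). Eif1ad, a relative of eIF1A, was at -0.03.

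The 5 genes of the initiator tRNA step showed 0 calls by edgeR, DESeq2 or voom, with 1 at an unadjusted p under 0.05. Eif2s2 and Eif2s3x, the beta and gamma subunits of eIF2, had log2 fold changes of -0.05 (95% interval -0.12 to 0.02) and 0.00 (95% interval -0.06 to 0.06). Eif2s3y, the Y-linked copy of the gamma subunit, was at 29.3 ± 3.39 and 32.3 ± 2.06 CPM (SD, n = 4) and made up 8.50% to 11.7% of the gamma subunit FPKM. Eif2a and Eif2d encode proteins that can bring tRNA to the ribosome without eIF2. Eif2a had a log2 fold change of 0.12 (95% interval -0.003 to 0.24) and Eif2d of -0.15 (95% interval -0.28 to -0.01, edgeR adjusted p = 0.111). Eif2d was the lowest estimate among the 53 factors and was called as a fall with library-total scaling, on FPKM and without knockdown replicate 1.

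Subunit joining was close to even. Eif5b, the GTPase of subunit joining, had a log2 fold change of -0.02 (95% interval -0.12 to 0.09), and Eif6, which keeps the large subunit apart, one of 0.01 (95% interval -0.04 to 0.07). Eif5a, the hypusine-bearing factor that helps the ribosome through difficult peptide bonds, was the most abundant of the initiation class at 1606 ± 30.6 FPKM in controls. It stood just outside the threshold, with 2067 ± 49.4 and 2166 ± 46.6 CPM (SD, n = 4, log2 change 0.07, edgeR adjusted p = 0.058). It was called by voom (adjusted p 0.0164), with the replicate block (0.0102), after the length and GC correction (0.00613) and without knockdown replicate 2 (0.0307). Its counts were not whole in any of the 8 libraries, and those of Eif5b were not whole in 7. Eif5a2 was at 22.4 ± 1.96 and 25.5 ± 3.52 CPM (SD, n = 4, log2 change 0.19, edgeR adjusted p = 0.127) and gave at most 0.356% of the FPKM of both genes.

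Across the 30 initiation factors outside eIF3 the median log2 fold change was 0.03, against 0.00 over all tested genes, and it turned to -0.03 with library-total scaling and -0.01 on FPKM. Estimates were above 0 for 20 and below 0 for 10. No median or share above 0 was computed for abundant genes alone, so these comparisons do not allow for the level of the factors. The 24 that did not pass lay between -0.15 and 0.19.

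**Figure D3:**
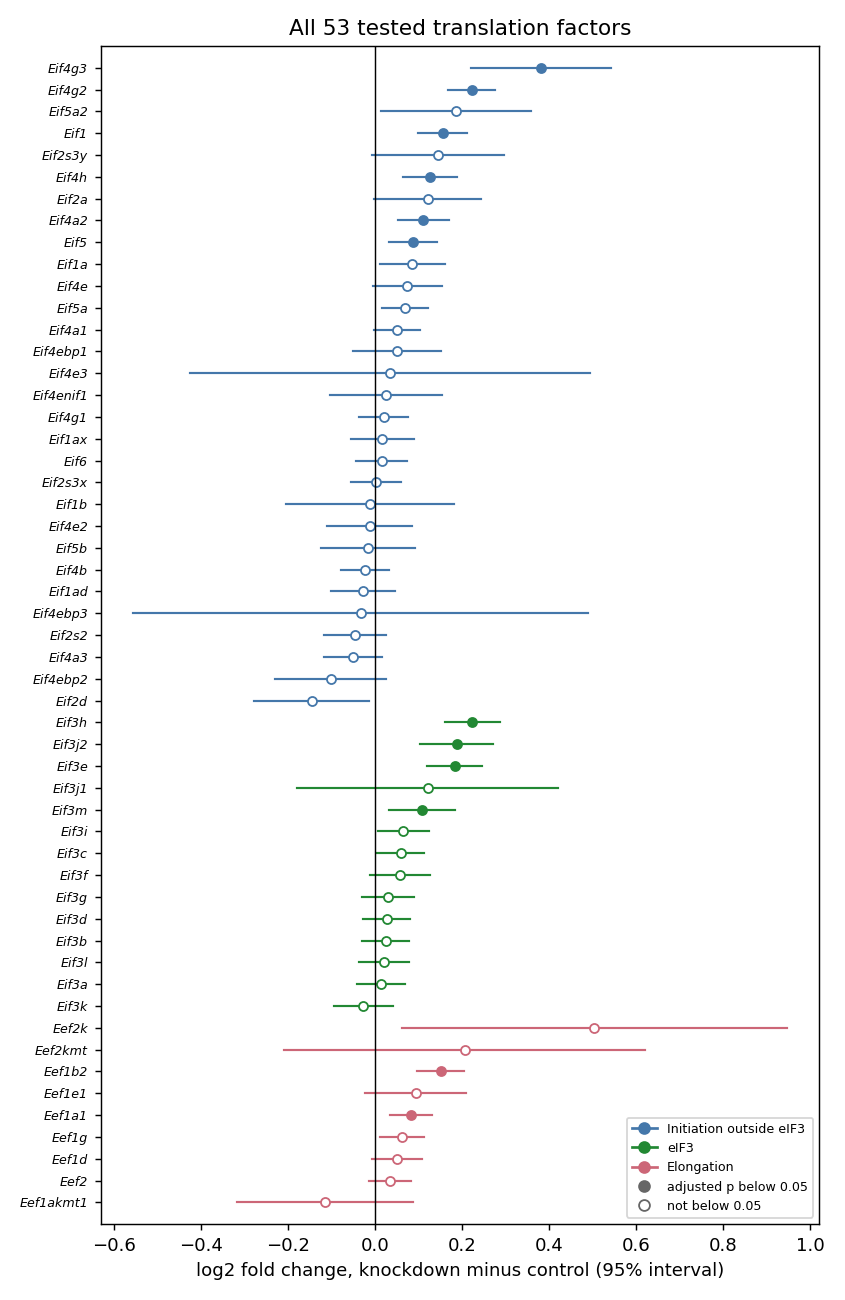
Log2 fold change (knockdown minus control) with its 95% interval for the 53 tested factors, ordered within each class, with filled points for adjusted p below 0.05. Of the 14 eIF3 points 13 lie above 0, against 20 of 30 for the other initiation factors and 8 of 9 for elongation. Over all 11576 tested genes 5673 estimates were above 0, a number not computed for abundant genes alone. With library-total scaling every point would move left by about 0.06. The initiation median would then fall below 0 and the eIF3 median would be 0.002.

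Of the 14 eIF3 genes 4 rose (28.6%) and 0 fell. Among all tested genes 11.1% rose, and among those with at least 100 CPM 28.3%, close to the eIF3 share. eIF3 is built from a core of subunits with PCI and MPN domains (a, c, e, f, h, k, l and m) and the peripheral subunits b, d, g, i and j. Of the 4 that rose, Eif3h, Eif3e and Eif3m belong to the core and Eif3j2 is peripheral. The core also holds Eif3a, Eif3c, Eif3f, Eif3k and Eif3l, which were not called. Among the 14, 0 had a negative estimate with an unadjusted p under 0.05, and DESeq2 and voom called 0 falls. Eif3h (ncbi_68135, chromosome 15, 51786563 to 51865461) had 407, 395, 410 and 407 CPM in control replicates 1 to 4 and 472, 446, 473 and 499 CPM in knockdown replicates 1 to 4. Controls were tight and every knockdown library lay above them (log2 change 0.22 ± 0.031 SE, edgeR adjusted p = 6.2e-07, or 117% of control, 95% interval 112% to 122%).

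Eif3e (ncbi_16341, chromosome 15, 43250040 to 43282736) encodes another core subunit. It had 213, 216, 220 and 218 CPM in control replicates 1 to 4 and 246, 250, 242 and 247 CPM in knockdown replicates 1 to 4. Each group varied little and the groups lay far apart relative to that (log2 change 0.18 ± 0.032 SE, edgeR adjusted p = 3.5e-05, or 113% of control). Eif3e and Eif3h lie on the same chromosome. The tested factors Eef1d, Eif3d, Eif3l and Eif4b lay further along it, from 75894796 on, and were not called. Of the other translation genes described below, Pabpc1 (from 36595658) on this chromosome rose, Rictor and Larp4 were not called and Gtpbp1 fell. Whether position played a part was not tested, so the rises of Eif3e and Eif3h may not be independent. Eif3m, also a core subunit, went from 136 ± 4.80 to 146 ± 1.71 CPM (SD, n = 4, log2 change 0.11 ± 0.038 SE, edgeR adjusted p = 0.0378). Eif3m lost its call in 12 of 20 alternatives, among them 7 of the 8 that leave out 1 library, all but that without control replicate 4 (adjusted p 0.0507 to 0.135).

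The loosely bound subunit eIF3j is encoded in mouse by the near-identical genes Eif3j1 and Eif3j2, whose counts were not whole in any library. Eif3j2 had 133, 128, 136 and 131 CPM in control replicates 1 to 4 and 146, 142, 147 and 167 CPM in knockdown replicates 1 to 4, with knockdown replicate 4 the highest. Its log2 fold change was 0.19 (SE 0.042, edgeR adjusted p = 0.000916), while Eif3j1 had 0.12 (SE 0.128, edgeR adjusted p = 0.589). Summed over both genes, which removes the split of reads between them, controls held 179 to 184 CPM and the knockdown 194 to 213 CPM without overlap. The Eif3j2 call was lost on FPKM (adjusted p 0.0664).

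The remaining subunits did not pass the test as reported, although Eif3b and Eif3c were called as rises after the length and GC correction. Eif3i, Eif3c and Eif3f had log2 fold changes of 0.06 (edgeR adjusted p = 0.12), 0.06 (edgeR adjusted p = 0.123) and 0.06 (edgeR adjusted p = 0.253). Eif3a, the largest subunit, had 743 ± 21 and 750 ± 12.8 CPM (SD, n = 4, log2 change 0.01, 95% interval -0.04 to 0.07). Eif3b, Eif3d, Eif3g and Eif3l lay between 0.02 and 0.03. Eif3k was the 1 subunit below 0, at -0.03 (95% interval -0.09 to 0.04). Intervals of Eif3a, Eif3b, Eif3d, Eif3g, Eif3k and Eif3l ended at or below 0.09, under the estimates for Eif3h and Eif3e. The differences between subunits were not themselves tested.

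Per length, eIF3 transcripts were uneven. Eif3d, a subunit that can itself bind the cap, was the most abundant at 726 ± 10.7 FPKM in controls, and Eif3j1 the least at 20.8 ± 2.44 FPKM (SD, n = 4). Eif3h moved from 336 ± 2.81 to 377 ± 15 FPKM, Eif3e from 143 ± 1.73 to 157 ± 2.49 FPKM and Eif3m from 113 ± 3.13 to 117 ± 0.798 FPKM (SD, n = 4). The summed FPKM of all 14 genes was 3622 to 3667 in controls and 3605 to 3692 in the knockdown, so the total overlapped on that scale. The summed TMM-scaled CPM was 6510 to 6682 and 6742 to 6925, without overlap. The median log2 fold change of the 14 was 0.06 and became 0.00 with library-total scaling and on FPKM.

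**Figure D4:**
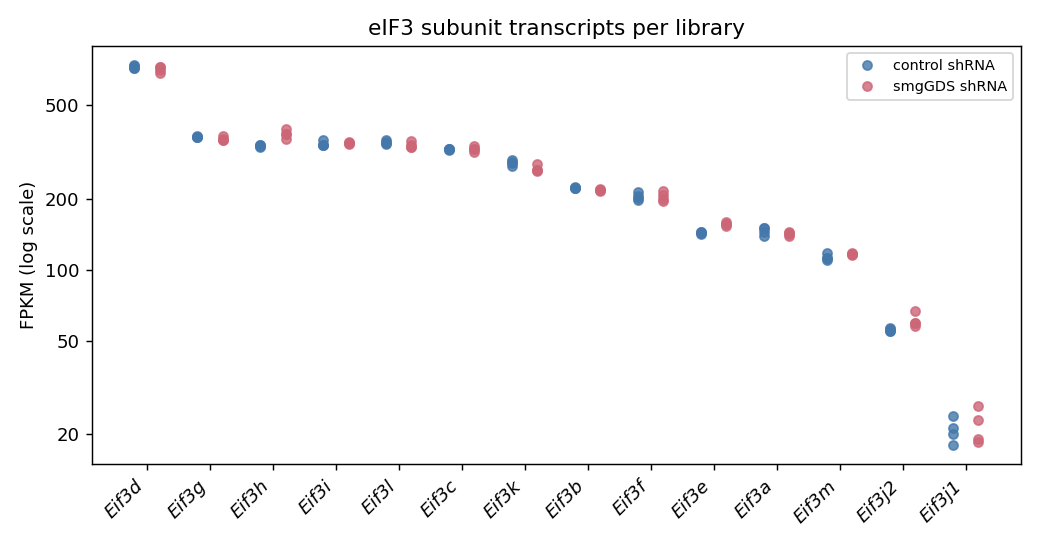
FPKM of the 14 eIF3 genes per library on a log axis, ordered by mean level, for control (blue) and knockdown (red) libraries. Mean levels run from 21.3 FPKM for Eif3j1 to 719 FPKM for Eif3d. Eif3h and Eif3e are the core subunits with all 4 knockdown libraries above the controls on this scale and a call on FPKM.

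Beside 11.1% of all tested genes and 28.3% of those with at least 100 CPM, 2 of the 9 elongation factors and their enzymes rose (22.2%) and 0 fell by edgeR, DESeq2 or voom, with 0 negative estimates at an unadjusted p under 0.05. Eef1b2 (ncbi_55949, chromosome 1, 63176831 to 63180486) encodes the exchange subunit of eEF1B that reloads eEF1A with GTP. It had 1158, 1158, 1195 and 1199 CPM in control replicates 1 to 4 and 1261, 1316, 1324 and 1325 CPM in knockdown replicates 1 to 4. Knockdown replicate 1 was the lowest of its group and still above all controls (log2 change 0.15 ± 0.027 SE, edgeR adjusted p = 4.17e-05, or 111% of control). Eef1a1 (ncbi_13627, chromosome 9, 78478453 to 78481724), encoding eEF1A itself, was the most abundant of all 53 factors. It had 7493, 7424, 7766 and 7483 CPM in control replicates 1 to 4 and 7953, 7938, 8037 and 8005 CPM in knockdown replicates 1 to 4.

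The Eef1a1 groups did not overlap, although control replicate 3 came close (log2 change 0.08 ± 0.024 SE, edgeR adjusted p = 0.0105, or 106% of control, 95% interval 102% to 109%). With library-total scaling its estimate was 0.03 (adjusted p 0.379), the same size on FPKM (limma adjusted p 0.283), and neither called it. With DESeq2 and with upper-quartile factors the estimate was 0.08 (adjusted p 0.00382 and 0.0139). In FPKM it stood at 4291 ± 69.3 and 4372 ± 19.8 (SD, n = 4). The remaining eEF1B subunits Eef1g and Eef1d had log2 fold changes of 0.06 (edgeR adjusted p = 0.0846) and 0.05 (edgeR adjusted p = 0.224). Eef1g had groups that did not overlap, 1570 to 1628 and 1642 to 1702 CPM. It was called by voom (adjusted p 0.0323), with the replicate block (0.0297) and after the length and GC correction (0.0165).

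Eef2, the translocase, was at 4380 ± 66.3 and 4483 ± 52.3 CPM (SD, n = 4, log2 change 0.03, 95% interval -0.01 to 0.08). Its inhibitory kinase Eef2k was the rarest of the tested factors, at 0.350 ± 0.0542 and 0.470 ± 0.0837 FPKM (SD, n = 4). Eef2k had the largest estimate of all, 0.50, with an interval of 0.06 to 0.95 and an edgeR adjusted p of 0.101, so it was not called. Eef2kmt and Eef1akmt1, which methylate lysines of eEF2 and eEF1A, had log2 fold changes of 0.21 (SE 0.205) and -0.12 (SE 0.101). Eef1e1, a scaffold of the multi-tRNA synthetase complex, was at 42.9 ± 1.71 and 45.8 ± 2.22 CPM (SD, n = 4, edgeR adjusted p = 0.279). The class median of 0.08 became 0.03 with library-total scaling and on FPKM.

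**Figure D5:**
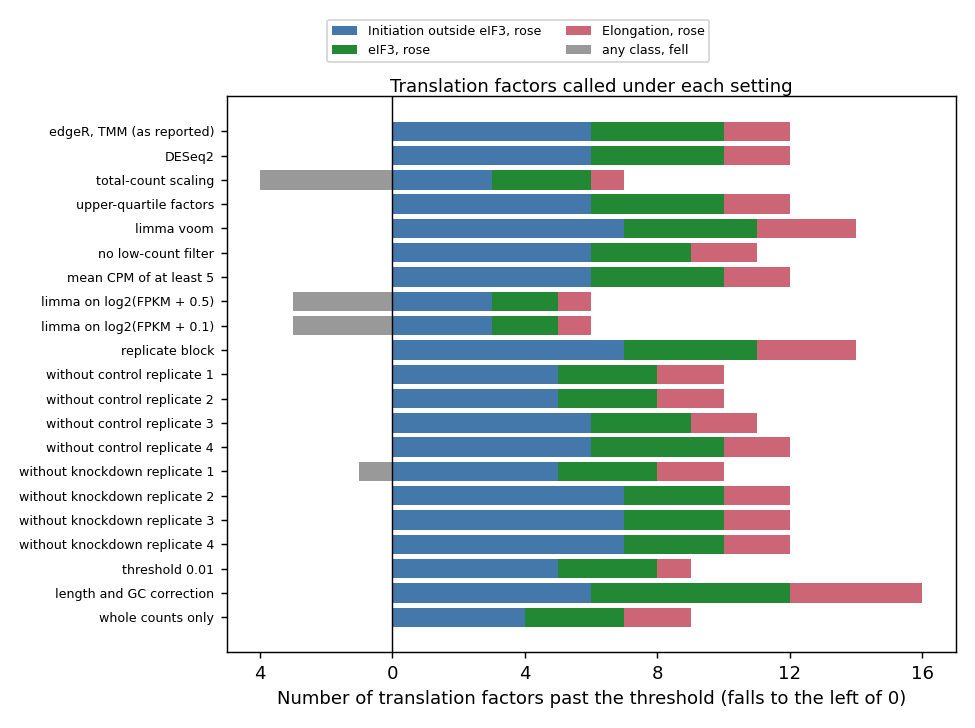
Number of translation factors past the threshold under the reported fit and 20 alternatives, stacked by class for rises (right of 0), with falls of any class in grey (left of 0). Rises number 12 as reported, 6 to 7 with library-total scaling and on FPKM, where 3 to 4 factors fall, and 10 to 12 when 1 library is left out. They number 14 with voom and with the replicate block and 16 after the length and GC correction. At a threshold of 0.01 and with whole counts only they number 9.

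Around these factors, 7 of 50 other translation genes rose and 1 fell beside 11.1% and 9.15% of all tested genes. The list held termination, poly(A)-binding, mTOR, helicase and ribosome-bound proteins. Pabpc1 and Pabpc4, which bind the poly(A) tail and contact eIF4G, went from 1928 ± 26.9 to 2177 ± 72.1 CPM and from 260 ± 8.26 to 298 ± 6.58 CPM (SD, n = 4). Their log2 fold changes were 0.18 (edgeR adjusted p = 2.83e-06) and 0.20 (edgeR adjusted p = 1.02e-05). Also higher were the abundant Tpt1 (0.16), the helicase Ddx3x (0.14), the ribosome rescue factor Hbs1l (0.20), the ribosome-binding Serbp1 (0.11) and the GTPase Gtpbp2 (0.21). Gtpbp1 was the 1 that fell (-0.10, edgeR adjusted p = 0.0382), and leaving out control replicate 1 or 3, or knockdown replicate 3, ended that call. Of 10 mTOR signalling genes 0 passed by edgeR, DESeq2 or voom, with 2 at an unadjusted p under 0.05. Values included Mtor (0.19, edgeR adjusted p = 0.134), Rptor (0.05) and Rps6kb1 (0.07). With library-total scaling 5 of the 50 rose and 7 fell, and on FPKM 3 rose and 5 fell.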

How the data were processed

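Poly(A)-selected RNA of 8 TCMK-1 libraries was sequenced, and the deposited table holds the authors' estimated counts (expected counts, some fractional) and the authors' FPKM, per the file headers. Per the submitters' processing notes, which give neither role nor order, build GRCm38.p6 and the tools RSEM, HISAT2 2.4, Bowtie2 2.2.8, fastp 0.18.0 and StringTie 1.3.1, with edgeR and DESeq2, are named. Strandedness and annotation release are not given in the sources, so reads of overlapping or antisense gene pairs may be mixed.

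After rounding, edgeR 4.0.16 (R 4.3.3) was fitted to the expected counts of all 21879 genes: default expression filter, TMM, robust quasi-likelihood F-test on group, two-sided, Benjamini-Hochberg over 11576 genes, threshold 0.05. Standard errors came from the fold change and F statistic. Counts were not whole (tolerance 1e-09) in 7 tested factors. A floor of 3 counts equals 0.187 to 0.259 CPM and covers counting error only. Replicates differed by more than sampling noise (chi-square per degree of freedom 1.94 to 3.94). The procedure was tested on simulated data with known changes, planted in genes drawn at random from all tested genes. It called 9 of 49 at an absolute log2 change of 0.15, 28 of 49 at 0.3 and 46 of 49 at 1. Of 11271 unchanged genes 9 were called. Small changes were thus often missed over all tested genes, and a gene not called may have changed. The factors are more abundant (median 150 FPKM against 6.56 over all tested genes). They were not simulated apart, so the rate for them is not known.

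The members and lists were chosen with earlier results of these data known. Every factor past the threshold is named, with all libraries for the 3 smallest adjusted p per class, and the most and least abundant, the paralogs and the nearest factors outside the threshold. Others were added for their role. Paralog shares used FPKM, with no test. Alternatives were DESeq2 1.42.0, limma 3.58.1 (voom, and log2(FPKM + 0.5) or log2(FPKM + 0.1)), other scalings and filters, a term for replicate number, omission of each library, and 0.01 as threshold. After seeing the data, 2 were added: a length and GC correction (longest GENCODE transcript) and a fit to genes with whole counts only. Coordinates and promoters came from RefSeq tables of the same build.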

Additional observations from a re-analysis of the deposited data

Results flagged for a closer look

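Of 106 groups of 4 libraries examined (53 factors in each arm), 10 held a library far from the other 3 by Dixon's gap test, where chance gives about 1 in 20. Among factors that rose, Eif4g3 in knockdown replicate 4 was at 29 CPM against 24.1 to 24.5 in the others, and Eef1b2 in knockdown replicate 1 was at 1261 CPM against 1316 to 1325. Both rises held without these libraries. Eif5a in knockdown replicate 2 was at 2097 CPM against 2184 to 2197, and it passed the test without that library (edgeR adjusted p = 0.0307). Eif2d in knockdown replicate 1 was at 34.8 CPM against 30.2 to 30.9, and it was called as a fall without that library.

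The remaining 6 belonged to factors that were not called. Eif1ad was at 178 CPM in control replicate 1 (others 189 to 190), Eif6 at 488 CPM in control replicate 2 (others 519 to 524) and Eif2a at 38.8 CPM in control replicate 2 (others 35.3 to 35.7). Eif3d was at 1428 CPM in control replicate 3 (others 1375 to 1381), Eif3k at 243.9 CPM in knockdown replicate 3 (others 229 to 230.1) and Eif4enif1 at 39.9 CPM in knockdown replicate 4 (others 37.2 to 37.7).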

How the results depend on the processing

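The 12 rises kept their direction in every alternative that tested them, 20 for 9 genes and 19 for Eif1, Eif4a2 and Eif3j2. With library totals 7 factors rose and 4 fell (initiation 3 and elongation 1 rising), with class medians of -0.027 for initiation, 0.0022 for eIF3 and 0.027 for elongation. Over all genes 766 rose and 1951 fell, and 7 other translation genes fell. On log2(FPKM + 0.5) and log2(FPKM + 0.1) alike, 6 factors rose and 3 fell (3 initiation, 2 eIF3 and 1 elongation rising), with medians of -0.010, 0.0017 and 0.027. All-gene rises were 592 and 588, and 3 other translation genes rose and 5 fell. Other translation genes that fell numbered 2 with upper-quartile factors, with no low-count filter, with a mean of at least 5 CPM, with the replicate block and after the length and GC correction, and 0 at a threshold of 0.01. At 0.01, 825 genes rose and 580 fell, with 1 elongation factor rising. After the length and GC correction 4 elongation factors rose (16 factors in all) and the eIF3 median was 0.074. This correction added Eef1g, Eef2, Eif3b, Eif3c and Eif5a to the calls and lost Eif5. With whole counts only the eIF3 median was 0.043.

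Leaving out 1 library at a time gave 10 to 12 rising factors and 0 to 1 falling, 0 to 2 other translation genes falling and an eIF3 median of 0.042 to 0.065. Same-numbered libraries deviated together with correlations of -0.04 to 0.08 (others -0.06 to 0.04). As these were small and the labels state no pairing, the numbers were not taken to pair samples. Still, 6 of 8 libraries correlated best with their own number, so a weak pairing was not excluded. With the replicate block 14 factors rose, Eef1g and Eif5a in addition, and 0 fell. Depth limits the rare factors, whose 95% intervals were wide, -0.43 to 0.49 for Eif4e3.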
